A study of Mus musculus with 4 samples.

Results

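The Gimap genes form a tight cluster on mouse chromosome 6, and 20 of the 4544 listed ATF4 peaks lay in it. ATF4, a basic leucine zipper transcription factor of the amino acid and stress response, was mapped by ChIP-seq, which sequences the DNA pulled down with an antibody to a protein, in CD4+CD25+ regulatory T cells of the mouse. The 8 genes Gimap8, Gimap9, Gimap4, Gimap6, Gimap7, Gimap1, Gimap5 and Gimap3 were taken, and their peaks were chosen by the gene assignment in the deposited list. Peaks assigned to them spanned chr6:48675944-48771141 (build mm10), or 95.2 kb, and every other peak inside that span was added. There were 19 peaks assigned to Gimap genes and 1 assigned to the long noncoding RNA gene Gm46958.

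There were 2 ATF4 ChIP samples and 2 input samples, fixed with 1% formaldehyde for 10 min. The labels give spleen as the tissue, and the design text adds lymph nodes. The sources used here give no strain, genotype, age or treatment. The deposited result is a single list for the series. It has no value per sample, so no value below has a replicate error, depth is unknown, and no comparison between samples was possible. Because this list also chose the peaks, their counts and strengths are descriptions and were not tested. In bulk chromatin, more cells with bound ATF4 and more binding per cell cannot be told apart.

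GIMAP proteins, the GTPases of immunity-associated proteins, are a vertebrate family of GTP-binding proteins found mainly in lymphocytes, and several are anchored in membranes of the endoplasmic reticulum, mitochondria, lysosomes or Golgi. Their genes lie side by side, and the family grew by gene duplication. In mice, loss of Gimap1 or Gimap5 leaves few mature T cells, so the family is best known for lymphocyte survival. ATF4 recognises composite DNA elements written as TGATGCAAT, in which a half-site for ATF proteins adjoins a half-site for C/EBP proteins.

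Promoter sequences were taken from RefSeq (GRCm38.p6), which held windows of 250 bases before to 50 after the annotated start for 8 of 8 genes, with 9 windows since Gimap8 has 2 starts. Windows of 4 genes are shown, because they carry what follows: Gimap9, with the most significant peak, Gimap5 and Gimap3, whose peak summits fell inside the window, and Gimap8, which had no peak and was the only gene of the cluster with the relaxed ATF4 letters described next. Each is written 5′ to 3′ on the strand of its gene. Capitals mark 3 short motifs searched on both strands: TGATGNAA, a relaxed form of the ATF4 element, AGGAAG, a core of ETS factor sites, and TGTGGT, a core of RUNX sites.
Gimap9 (chr6:48675885-48676184, plus strand): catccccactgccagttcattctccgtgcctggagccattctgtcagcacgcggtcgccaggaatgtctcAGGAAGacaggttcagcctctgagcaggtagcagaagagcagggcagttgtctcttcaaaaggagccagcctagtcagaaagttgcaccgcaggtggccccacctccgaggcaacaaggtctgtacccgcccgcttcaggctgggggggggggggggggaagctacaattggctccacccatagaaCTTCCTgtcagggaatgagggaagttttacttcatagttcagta
Gimap5 (chr6:48745947-48746246, plus strand): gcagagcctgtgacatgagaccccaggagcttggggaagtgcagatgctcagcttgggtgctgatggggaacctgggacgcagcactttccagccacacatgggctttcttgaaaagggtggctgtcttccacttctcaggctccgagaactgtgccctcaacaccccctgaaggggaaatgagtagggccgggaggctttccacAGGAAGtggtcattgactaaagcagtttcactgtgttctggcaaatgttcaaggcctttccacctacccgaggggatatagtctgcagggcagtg
Gimap3 (chr6:48770802-48771101, minus strand): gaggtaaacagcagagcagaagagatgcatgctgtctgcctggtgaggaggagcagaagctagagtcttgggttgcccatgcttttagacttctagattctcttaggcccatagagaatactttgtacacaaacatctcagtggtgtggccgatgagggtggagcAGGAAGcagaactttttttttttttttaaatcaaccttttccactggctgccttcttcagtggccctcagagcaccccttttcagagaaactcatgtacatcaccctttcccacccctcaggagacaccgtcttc
Gimap8, the downstream start (chr6:48647111-48647410, plus strand): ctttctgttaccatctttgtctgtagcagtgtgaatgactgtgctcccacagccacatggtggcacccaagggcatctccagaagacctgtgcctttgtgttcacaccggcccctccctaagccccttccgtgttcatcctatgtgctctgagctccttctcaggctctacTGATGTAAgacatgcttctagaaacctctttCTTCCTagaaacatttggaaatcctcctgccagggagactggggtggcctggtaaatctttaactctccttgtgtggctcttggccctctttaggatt

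Listed peaks were spread unevenly along the cluster. Of the 8 genes, 6 had at least 1 assigned peak, against 12.9% of 21887 protein-coding genes, and 5 had a peak of the authors' Promoter class, against 11.3%. The same 5 genes, Gimap9, Gimap6, Gimap1, Gimap5 and Gimap3, had a peak over the annotated transcription start, as did 7.86% of protein-coding genes. Gimap4 had 4 peaks, all of them away from its start. Gimap7 and Gimap8 had no assigned peak. At least 3 peaks were assigned to 5 of the 8 genes and to 0.649% of protein-coding genes. This count depended on weak and adjoining peaks: it was 3 (coding genes 0.384%) at a −log10 q of at least 3, 2 (0.228%) with peaks at or above the median fold enrichment of the list alone, and 2 (0.429%) with peaks within 500 bp merged.

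**Figure D1:**
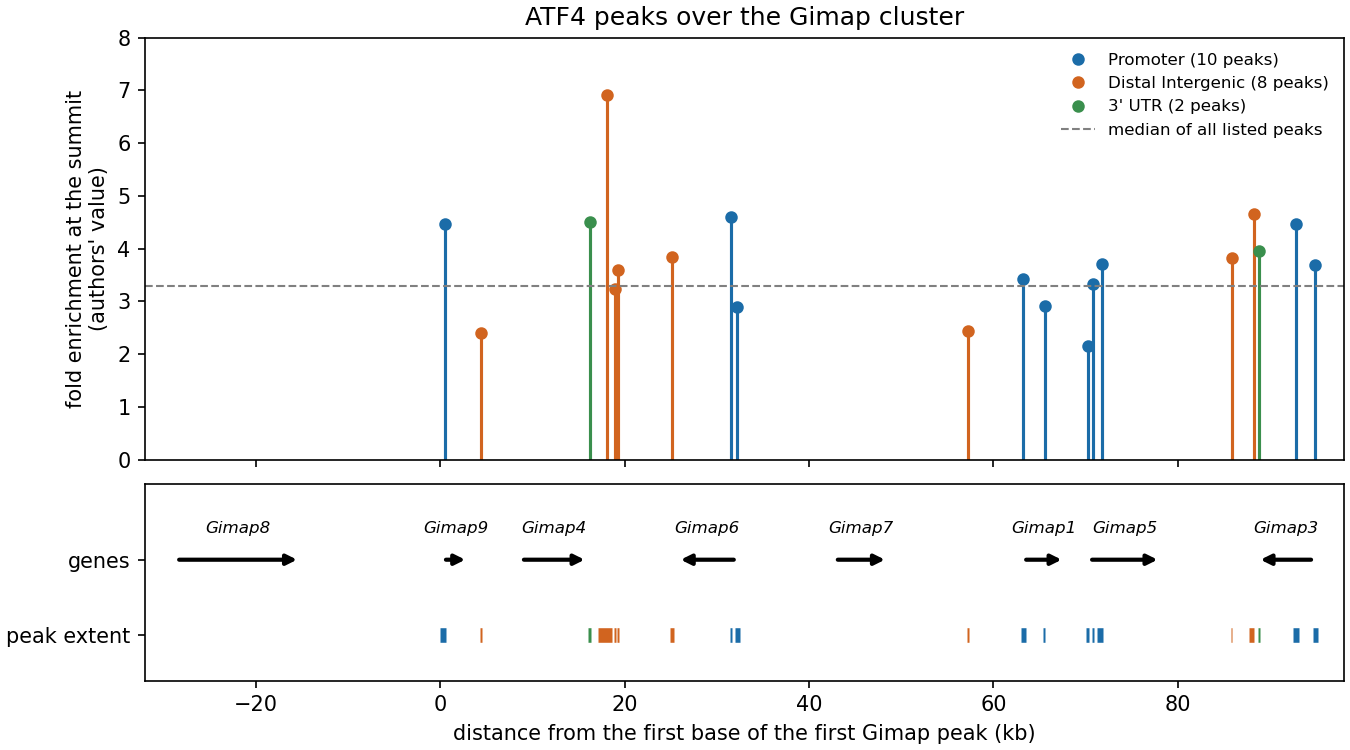
Fold enrichment at the summit of each of the 20 peaks (upper panel, coloured by the authors' annotation class) against distance in kb from the first base of the first peak, with the gene spans as arrows in the direction of transcription and the extent of each peak (lower panel). The highest point, 6.92, is a distal peak between Gimap4 and Gimap6, and no point lies over Gimap8 or Gimap7.

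Gimap8 opens the cluster and encodes an unusually long family member with repeated GTP-binding domains. The nearest peak to its start was that of Gimap9, 28.8 kb away. Gimap9 had a single peak, at chr6:48675944-48676610 over its start, with a fold enrichment of 4.47 and a −log10 q of 21.6. That was the most significant peak of the cluster, and 18.1% of all listed peaks had a higher fold enrichment. It also lay within Gm46958, which is transcribed from the opposite strand. The only peak assigned to Gm46958 stood 3.42 kb from the start of that gene, 1.28 kb past the 3′ end of Gimap9, and was the least significant of the cluster (fold enrichment 2.41, −log10 q 1.67).

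Gimap4 encodes a GTPase that in mice speeds the death of T cells that have begun apoptosis. Its peaks lay at and beyond its 3′ end and none near its start, to which the closest peak was 4.13 kb away. The peak over the last bases of the gene (chr6:48691984-48692334) had a fold enrichment of 4.50. The next peak, at chr6:48693058-48694593, was the strongest of the cluster at 6.92, with a −log10 q of 15.7. Its summit was 1.97 kb past the end of Gimap4. At 1536 bp it was also the widest of the cluster, whose median width was 338 bp against 261 bp in the whole list. It ranked 210 of 4544 by fold enrichment, and 14 among the 524 Distal Intergenic peaks. Weaker peaks of 3.24 and 3.59 followed it with summits 2855 and 3195 bp past the gene.

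Gimap6, which in mice takes part in autophagy through the ATG8 protein GABARAPL2, is transcribed towards Gimap4. It had a peak of 3.85 just beyond its 3′ end and a pair of promoter peaks. The stronger of these was not the one over the start: it stood 636 bp from the start with a fold enrichment of 4.60 (−log10 q 9.43), while the peak over the start had 2.89 (−log10 q 4.87). Gimap7, a member whose human protein activates the GTPase of a relative, had no listed peak. The nearest peak to its start was the promoter peak of Gimap6, 10.2 kb away, and the run of 24.6 kb around it was the longest stretch without a peak between the outermost peaks.

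Gimap1, needed in mice for mature T and B cells, had a peak of 3.42 over its start (−log10 q 10.6), a peak of 2.91 within the gene and a distal peak of 2.44 at 5.74 kb before the start. Gimap5, needed in mice for lymphocyte survival and known for its place on lysosomes, had 3 peaks around its start, and the farther from it the higher. The peak over the start was the weakest of the cluster at 2.15 (−log10 q 2.52). The next, 478 bp from the start, had 3.33 and the last, 994 bp from it, 3.71 (−log10 q 10.1). At Gimap5, as at Gimap6, the strongest signal thus stood inside the gene and not over the start.

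Gimap3, a close relative of Gimap5 that is anchored in mitochondrial or endoplasmic reticulum membranes, had 5 peaks, more than any other gene of the cluster. Only 24 of 21887 protein-coding genes had 5 or more, and the most was 8. At a −log10 q of at least 3, Gimap3 kept 4. Its peaks of 4.65 and 3.96 stood 478 bp apart, so merging peaks within 500 bp joins them. The peak over its start had a fold enrichment of 3.69 (−log10 q 11.8) with its summit 3 bp inside the gene. A peak 1.76 kb from the start had 4.47 (−log10 q 11.8). The other 3 lay around the 3′ end, with fold enrichments of 3.83, 4.65 and 3.96. The sources used here do not say how reads shared by related copies were placed. The longest run of bases shared by the Gimap3 and Gimap5 promoter windows was 9, and the longest over all 28 pairs of genes was 14. Gene bodies were not compared.

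Peaks lay more densely in the spaces where neighbouring genes are transcribed towards each other. There are 2 such spaces, between Gimap4 and Gimap6 and between Gimap5 and Gimap3, together 19.8 kb long, and 7 summits fell there, or 3.54 per 10 kb. They were not alike: the first held 5 summits in 9.52 kb and the second 2 in 10.3 kb. Some of those 5 were of adjoining peaks, with gaps of 210 and 163 bp. The other 5 spaces between neighbours covered 47.9 kb and held 3 summits, or 0.626 per 10 kb, with 1 of them in the 2.4 kb between Gimap1 and Gimap5. The other 10 summits lay inside genes. The space between Gimap6 and Gimap7, which are transcribed away from each other, held no summit, though the promoter peak of Gimap6 reached into it. Of the 20 peaks, 8 had a summit within 3 kb of the 3′ end of a coding gene and more than 3 kb from any coding start. The share among 4390 placed peaks was 7.72%.

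By the authors' classes, the 20 peaks were 10 Promoter, 8 Distal Intergenic and 2 3′ UTR peaks. Distal Intergenic peaks thus made up 40.0% of the cluster and 11.5% of the list, and Promoter peaks 50% and 74.3%. No peak was annotated to an intron, a class that made up 10.2% of the list, and 0 of 20 is near that share. The Promoter class also took in peaks inside genes, such as those 1.76 kb from the Gimap3 start and 2.33 kb from the Gimap1 start.

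The peaks were of ordinary strength. Their median fold enrichment was 3.70 against 3.30 in the list, and 14 of 20 lay at or above the list median. By −log10 q the order was turned, with a median of 5.12 against 5.71. Within classes, the 10 Promoter peaks had a median −log10 q of 9.79, above the 6.45 of all Promoter peaks, and the 8 Distal Intergenic peaks 3.79, below the 4.14 of their class. In 5 of the 20 the −log10 q was under 3, as in 23.1% of the list. In fold enrichment, none of the 20 reached the weakest of 10 canonical ATF4 targets, which are amino acid and stress genes. Their strongest peaks ran from 7.69 at Psat1, a serine synthesis enzyme, to 38.4 at Chac1, a glutathione-degrading enzyme. By −log10 q the Gimap9 peak, at 21.6, stood above the lowest of these targets, Atf5, at 20.8.

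**Figure D2:**
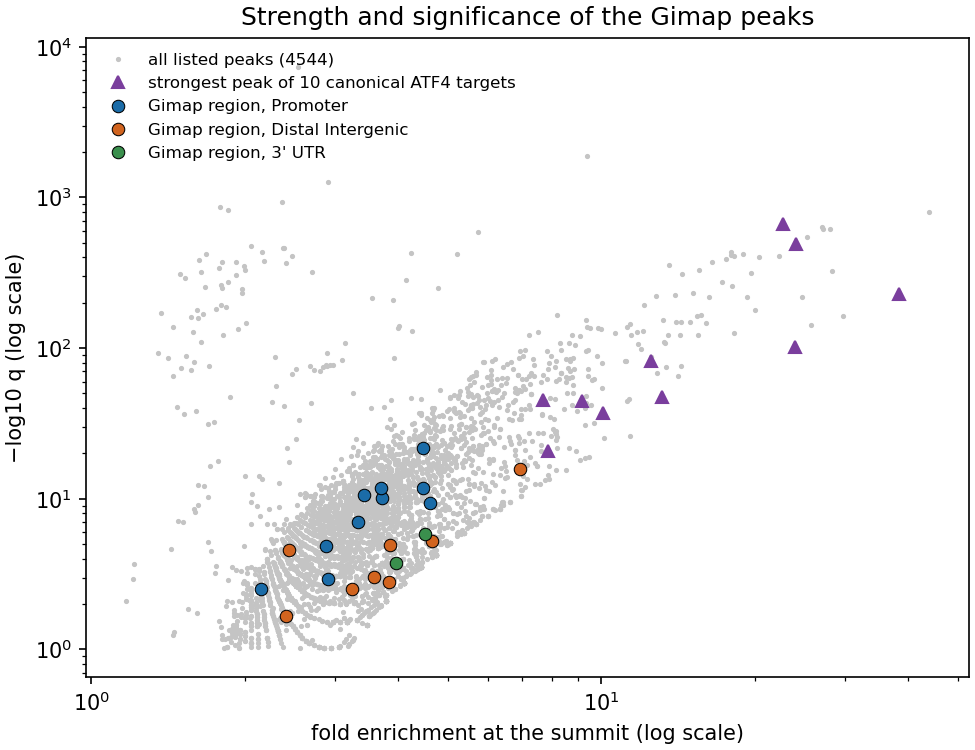
Fold enrichment at the summit against −log10 q, both on log scales, for all 4544 listed peaks (grey), the 20 peaks of the Gimap region by class and the strongest peak of each of 10 canonical ATF4 targets (triangles). The Gimap peaks, from 2.15 to 6.92, lie within the main cloud and to the left of all the triangles.

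The cluster was dense in peaks. Over the 95.2 kb between its outermost peaks it held 21.0 peaks per 100 kb. Chromosome 6 as a whole held 250 peaks, or 0.171 per 100 kb from its first to its last. The ends of the 95.2 kb were set by the peaks counted, which raises the cluster's value. From Gimap8 to Gimap3 the genes span 124 kb. Neighbouring peaks of chromosome 6 stood a median of 63.9 kb and a mean of 586 kb apart. On the low-coordinate side the promoter peak of Lrrc61, at 2.49, was 121 kb from the first Gimap peak, and on the other side that of the splicing regulator gene Tra2a, at 2.24, was 493 kb from the last. As most coding genes, of which 12.9% had a peak, none of the 3 nearest protein-coding genes on either side, Gm5111, Repin1 and Zfp775 before and Tmem176b, Tmem176a and Gm7932 after, had an assigned peak.

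Windows as long as the cluster were laid from every peak of the list. Of 4544 such windows, 15 held 20 or more peaks, or 0.33%, and 14 of these held peaks of a single gene each. They overlapped one another at Pisd-ps3 on an unplaced sequence, where the fullest window had 27 peaks with a median fold enrichment of 1.86, and at Mir101c on chromosome 9, with 25 peaks and a median of 1.78. The only window of several genes was the Gimap cluster, but the window length and the cutoff of 20 were both taken from that cluster. Its place among the windows is thus a description that depends on this choice and was not tested. Next came a histone gene window on chromosome 13 with 19 peaks over 18 genes and a median of 4.10, a window on chromosome 4 of the interferon gene Ifnz and neighbouring genes with Gm numbers, with 18 peaks over 14 genes and a median of 3.03, and a second histone window on chromosome 13 with 15 peaks and a median of 3.40. Promoter peaks made up all peaks of these 3 windows, 3.7% at Pisd-ps3, 8% at Mir101c and 50% in the Gimap cluster.

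**Figure D3:**
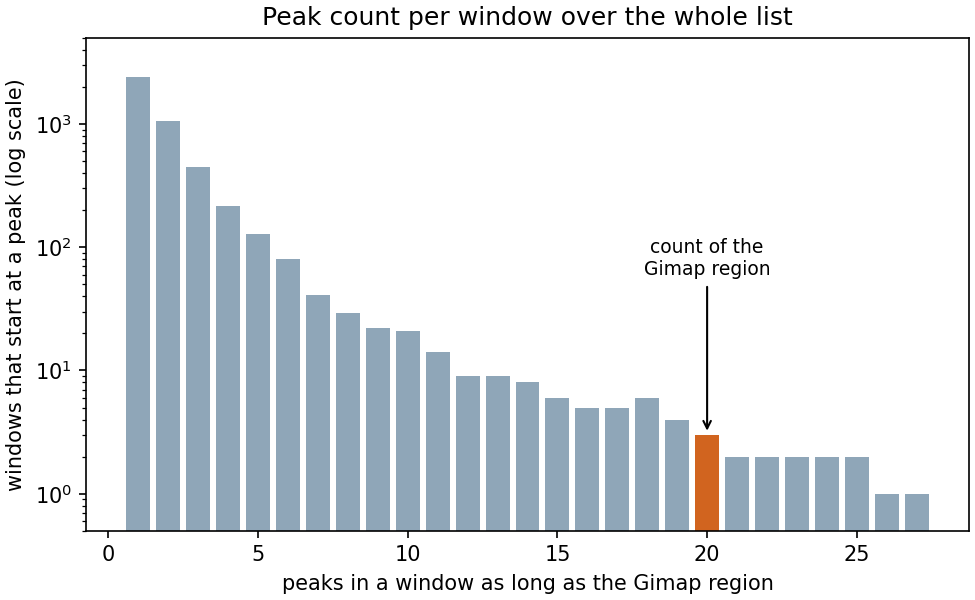
Number of windows of 95.2 kb, each starting at a listed peak, by the number of peaks they held, with windows on a log scale. Most windows hold 1 peak, and the Gimap count of 20 (orange bar, 3 windows, 1 of them the Gimap cluster) lies in the tail.

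The Gimap promoters were poor in CpG, unlike most promoters with an ATF4 peak. Across 21255 promoter windows of protein-coding genes, windows with a peak over them had a median of 25 CpG dinucleotides and windows without a peak 11. The Gimap windows held from 2 to 8. Of the 5 Gimap windows with a peak, Gimap3 held 2, Gimap6, Gimap1 and Gimap5 held 4 each and Gimap9 held 8. Thus 4 of these 5 had at most 5, as had 4.29% of the 2050 coding windows with a peak. The windows without a peak, those of Gimap8, Gimap4 and Gimap7, held from 2 to 4, so the counts of windows with and without a peak overlapped.

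**Figure D4:**
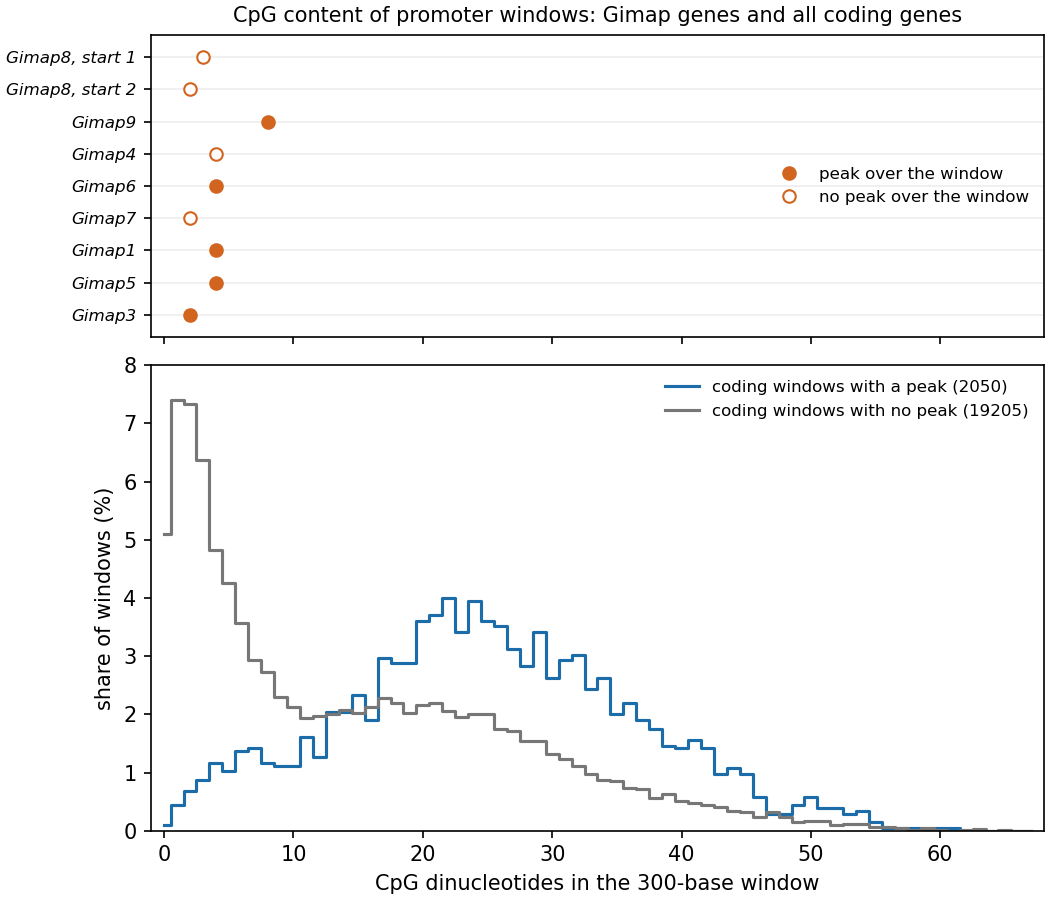
CpG dinucleotides in each of the 9 Gimap promoter windows (upper panel, filled where a peak lay over the window) and the share of coding promoter windows with each CpG count, with a peak (blue) and without (grey). All Gimap windows stand at 8 or fewer, where the grey curve is high and the blue curve low.

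The relaxed ATF4 element was rare in coding promoters at large. TGATGNAA was present in 3.6% of all coding promoter windows, in 3.37% of those with a peak and in 7% of those with at most 5 CpG. Among the 9 Gimap windows it was in 1, that of the downstream Gimap8 start printed above, where tgatgtaa begins 79 bases before the start. Against the full element TGATGCAAT, the best stretch of that window matched 7 of 9 bases, as did that of Gimap7, tgatggagt. Every other Gimap window, including all 5 with a peak, reached 6. Of all windows 39.7% reached 7 or more, so 7 is a common value. Counts this small among 9 windows are near these shares. Among 8 canonical targets with a window, 4 held TGATGNAA. The summit lay in the printed windows only for Gimap5 and Gimap3, and the sequence under the other summits was not analysed here.

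AGGAAG was held by 7 of the 9 Gimap windows, at 7 of the 8 genes and not at Gimap6, against 34.4% of all coding windows and 40.3% of those with at most 5 CpG. Only these exact letters were counted, and the Gimap6 window holds cggaag, which differs in its first base alone. In the Gimap5 window AGGAAG begins 45 bases before the start, next to the summit 36 bases before the start. That summit is of the weakest peak of the cluster, at 2.15 (−log10 q 2.52). In the Gimap3 window AGGAAG begins 85 bases before the start. TGTGGT was held by 3 windows, those of Gimap4, Gimap7 and Gimap1, against 15% of all coding windows and 22.2% of those with at most 5 CpG. With 9 windows, a count of 3 is near the latter share. The Gimap windows held neither the cyclic AMP response element TGACGTCA, found in 2.23% of all coding windows, nor TGANTCA, the letters of AP-1 sites, found in 6.99%, and 0 of 9 is near both shares. Windows with and without a peak overlapped in these motifs: AGGAAG was in 4 of the 5 with a peak and in 3 of the 4 without. TGTGGT was in the window of Gimap1, which had a peak, and in those of Gimap4 and Gimap7, which had none.

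Other gene lists give a scale for these counts, with the share of protein-coding genes with a peak at 12.9% as above. These lists were chosen with earlier results of these data known, so their counts are descriptions and were not tested. Among genes of naive and quiescent T cells, 11 of 16 had an assigned peak, the strongest at Tob1 (9.36), Btg2 (6.19) and Btg1 (6.10), which restrain proliferation, and at the egress receptor gene S1pr1 (5.34). Of these genes, 4 had 3 or more peaks, against 0.649% of protein-coding genes. Among T cell regulators 9 of 12 had a peak, led by Bcl11b (5.59), Foxp3 (4.97), Gata3 (4.78) and Ets1 (4.29), an ETS factor gene with 5 peaks. Runx1, whose protein binds RUNX sites, had 3 peaks, the strongest at 3.33. Its relative Runx3, of the same list, had 1 peak, a distal peak of 3.58.

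Of 10 genes of reported GIMAP partners, 3 had a peak: Bcl2l11, which encodes the pro-apoptotic protein BIM (4.18), and the autophagy genes Map1lc3b (3.97) and Gabarap (2.11). No peak was assigned to Bcl2, Bcl2l1 or Gabarapl2. Among interferon-inducible GTPases, another family of immune GTPases, 4 of 16 had a peak, namely Iigp1 (4.26), Gbp9 (3.94), Gbp4 (3.80) and Irgm1 (2.05), and none had 3 or more. Among small GTPases of lymphocytes 6 of 10 had a peak, led by Cdc42 (4.11), Arl4c (3.20), Rac1 (3.04) and Rap1b (2.36), and none had 3 or more. Over all protein-coding genes 0.649% had 3 or more, so none in either of these GTPase lists is near that share.

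A peak list cannot show which cells were present. Of 6 regulatory T cell markers 5 had an assigned peak, and of 6 general T cell markers 1 did, Lck, while Cd4 and the Cd3 genes had none. Among markers of other cells, 1 of 5 had a peak for CD8 T and NK cells, 1 of 5 for B cells, 1 of 5 for myeloid cells and 1 of 4 for erythroid cells. Over all protein-coding genes the share was 12.9%, and counts of 1 in lists this short are near it. GIMAP genes are active in B and other T cells as well, and the part of such cells in the Gimap peaks was not tested.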

How the data were processed

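The authors' deposited list was used, with fold enrichment at the summit, −log10 p, −log10 q and a score for each peak, in the layout of MACS2, and with annotation in the layout of ChIPseeker. Per the submitters' processing notes, Trim Galore, Bowtie2, MACS2 and deepTools were used on build mm10. The sources used here give no versions and do not state how replicates were pooled, how the inputs were used or how reads with several matches were handled. Starts were raised by 1 to count from 1. The deposited distance from the start was then found again in 4544 of 4544 peaks, and the deposited spans of 19 of 19 Gimap peaks' genes equalled those of the RefSeq table of GRCm38.p6.

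No test was run. The Gimap genes, the 6 gene lists, the markers and the rule for named genes were chosen with earlier results of these data known. Named were the Gimap genes, genes with a peak in the region, the 3 nearest coding genes on each side, genes of the 5 fullest windows and up to 4 genes of each list by strongest peak. Psat1, Atf5, Runx1, Runx3, Cd4 and genes named for having no peak or as the end of a range fall outside it. They were chosen after their values were seen. Promoter windows with all 300 bases resolved were searched for exact letters on both strands, and window counts, merging and motif searches were tested on simulated data. Python 3.11.15, numpy 2.4.6, pandas 2.3.3 and matplotlib 3.10.9 were used.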

Additional observations from a re-analysis of the deposited data

How the results depend on the processing

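No paired analysis was possible because the list has no values per sample, and no replicate could be left out. The number of Gimap genes with a peak stayed at 6, and with a Promoter peak at 5, at a −log10 q of at least 3, at a q of 0.05 or less, with peaks at or above the list median of fold enrichment alone, with peaks within 500 bp merged and with peaks given to the nearest annotated start. The latter also stayed at 5 with promoters limited to 1 kb. That limit could not lower the count, because all 5 genes had a peak over the annotated start. Giving peaks to the nearest annotated start left every peak of the cluster with its deposited gene, so it is no separate check. The number of genes with at least 3 peaks, tried after the data were seen, went from 5 to 3 at a −log10 q of at least 3 and to 2 with peaks at or above the list median alone or with peaks merged, and stayed at 5 with a q of 0.05 or less. The count of 20 peaks became 15 at a −log10 q of at least 3 and 14 with peaks at or above the list median alone or with peaks merged, and stayed at 20 with a q of 0.05 or less and over the 8 gene spans with 10 kb on each side. The median fold enrichment of 3.70 became 3.85, 3.90 and 3.84 under those 3 settings that removed peaks, which drop weaker peaks by construction. Depth is unknown, so a gene with no listed peak is not shown to be free of ATF4.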
